A study of Mus musculus with 4 samples.

Results

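The genes described here run DNA replication and mitosis in mouse 3T3-F442A fat cells. The set was a named list of 36 genes, and a gene was kept where at least 1 probe set of the array was annotated to it and to no other gene. Of the 36, 34 were measured, among 12393 genes measured in all, through 64 of 22626 probe sets. Ccnb1 and Cdca8 had no probe set of their own, so they have no expression values here and enter only the promoter counts. The members were split by role into 13 replication genes (Mcm2 to Mcm7, Pcna, Rrm1, Rrm2, Tyms, Cdc6, Ccne1 and Ccne2) and 21 measured mitotic genes, the latter including the transcription factors E2f1 and Foxm1.

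3T3-F442A is a mouse preadipocyte line that turns into fat cells in culture. Both groups were infected overnight with a retrovirus that makes a short hairpin RNA, selected with puromycin at 2 µg/ml for 2 days, grown to confluence in medium with serum, and kept in 850 nM insulin for 8 days, with rosiglitazone, an activator of the fat cell regulator PPARγ, during the first 2. The 2 arrays of the group shGFP carried a hairpin against GFP, which serves as control, and the hairpin of the 2 shTRPV4 arrays was directed at Trpv4, which encodes a calcium-permeable ion channel. All 4 arrays therefore share infection, selection and differentiation, and the labels say neither how many hairpin sequences were used, nor whether the cells were a pool or a clone, nor whether the replicates were separate cultures. The p-values therefore reflect how far these arrays scatter, and that scatter may be only technical.

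A dividing cell licenses its replication origins in G1 by loading the MCM helicase, copies its DNA in S phase with polymerases held by the sliding clamp PCNA, and then separates the chromosomes on a spindle whose checkpoint holds back the anaphase-promoting complex. Cyclins and their kinases order these steps, and the genes are switched on in waves. E2F factors drive the replication genes, while the DREAM and MuvB complexes with B-MYB and FOXM1 act on mitotic genes through the CHR element. The CCAAT box is counted below as a separate motif, not as a site of these complexes. 3T3-F442A preadipocytes stop dividing at confluence, and little division is usually seen once they have become fat cells.

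The promoters of 6 members are shown because they come from genes called lower (Mcm6, Bub1, Cdc20 and Kif11), called higher (Ccne1) and not called (Cdk1), and because they differ in these motifs. Of the stretches shown, that of Mcm6 holds the E2F core, those of Ccne1, Cdc20, Kif11 and Cdk1 hold the CHR, and that of Bub1 holds CCAAT boxes alone. Each is the last 120 bases before the annotated transcript start, 5′ to 3′ on the gene's strand, from RefSeq on build GRCm38.p6. Capitals mark every match on either strand to the E2F core (TT, then 2 letters each C or G, then CGC), to the CHR (TTTGAA or TTTAAA) or to the CCAAT box (CCAAT, which reads ATTGG from the opposite strand). Matches that overlap were merged into 1 run. The stretches are Mcm6 (chr1:128359706-128359825, minus strand), Ccne1 (chr7:38107491-38107610, minus), Bub1 (chr2:127831860-127831979, minus), Cdc20 (chr4:118437344-118437463, minus), Kif11 (chr19:37376262-37376381, plus) and Cdk1 (chr10:69352913-69353032, minus).
Mcm6: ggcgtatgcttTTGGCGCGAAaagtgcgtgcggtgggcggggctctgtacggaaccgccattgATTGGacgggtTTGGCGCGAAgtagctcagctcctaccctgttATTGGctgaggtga
Ccne1: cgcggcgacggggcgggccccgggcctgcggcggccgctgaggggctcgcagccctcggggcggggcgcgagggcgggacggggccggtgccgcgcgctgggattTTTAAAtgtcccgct
Bub1: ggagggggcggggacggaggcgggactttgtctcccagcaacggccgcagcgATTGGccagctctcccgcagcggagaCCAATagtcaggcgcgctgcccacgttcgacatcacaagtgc
Cdc20: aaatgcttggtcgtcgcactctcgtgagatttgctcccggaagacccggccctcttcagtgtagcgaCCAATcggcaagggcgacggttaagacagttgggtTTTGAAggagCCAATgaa
Kif11: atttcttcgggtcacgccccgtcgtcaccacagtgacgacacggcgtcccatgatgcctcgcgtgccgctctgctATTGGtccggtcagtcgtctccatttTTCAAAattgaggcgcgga
Cdk1: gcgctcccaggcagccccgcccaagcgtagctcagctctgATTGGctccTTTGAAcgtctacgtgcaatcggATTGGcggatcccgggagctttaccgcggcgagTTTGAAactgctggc

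Windows of 300 bases, 250 before the start and 50 after it, were found for 29 of the 36 members, Ccnb1 and Cdca8 included. The E2F core stood in 7 of 11 replication windows (63.6%) and in 3 of 18 mitotic windows (16.7%), against 9.69% of the 27025 genes in the RefSeq table. The CHR stood in 4 of 11 replication windows (36.4%) and 15 of 18 mitotic windows (83.3%), against 27.8% of all genes. CCAAT boxes stood in 8 of 11 (72.7%) and 15 of 18 (83.3%), against 37.9%. The windows of Nusap1, Tyms and E2f1 held none of the 3. A match is a description of letters in this window, and says nothing of whether a factor binds there in these cells.

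**Figure D1:**
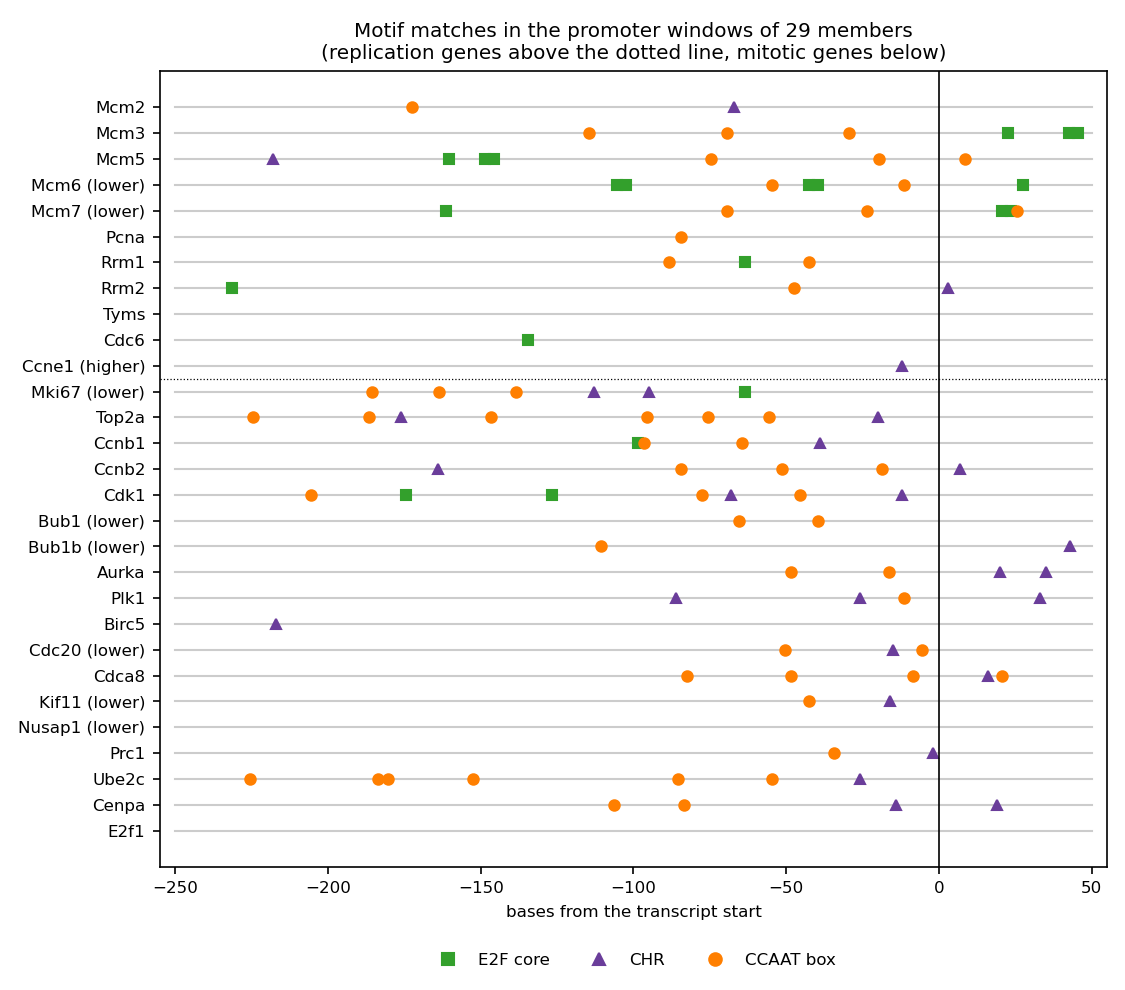
Motif matches on either strand in the promoter windows of 29 members, by distance in bases from the transcript start; squares mark the E2F core, triangles the CHR and circles the CCAAT box, and members called lower or higher are marked beside their names. The E2F core lies in 7 of 11 replication windows and 3 of 18 mitotic windows, the CHR in 4 of 11 and 15 of 18.

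The values are the authors' deposited array intensities, on a linear scale. A difference is shTRPV4 minus shGFP in quantile normalized log2(intensity + 16), where the added 16 understates the change of dim genes, and a gene is called where limma's adjusted p, over all probe sets, is under 0.05. A gene with several probe sets is represented by the brightest.

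Of the 34 measured members, 9 were called lower in the shTRPV4 arrays (26.5%, against 6.0% of all genes measured) and 1 was called higher (against 5.33%). The difference was negative for 30 of 34, against 46.2% of all genes, with a median of −0.36 against 0.02 over all genes. Both shTRPV4 arrays lay below both shGFP arrays for 25 members, where 27.7% of all genes did so, and above them for 2, where 33.2% of all genes did so. At an unadjusted p under 0.05, 23 members were lower, against 15.2% of all genes. By the same measure 1 member was higher, as were 2214 of all 12393 genes. Since RNA came from whole cultures, fewer dividing cells and less of each RNA per cell cannot be told apart.

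**Figure D2:**
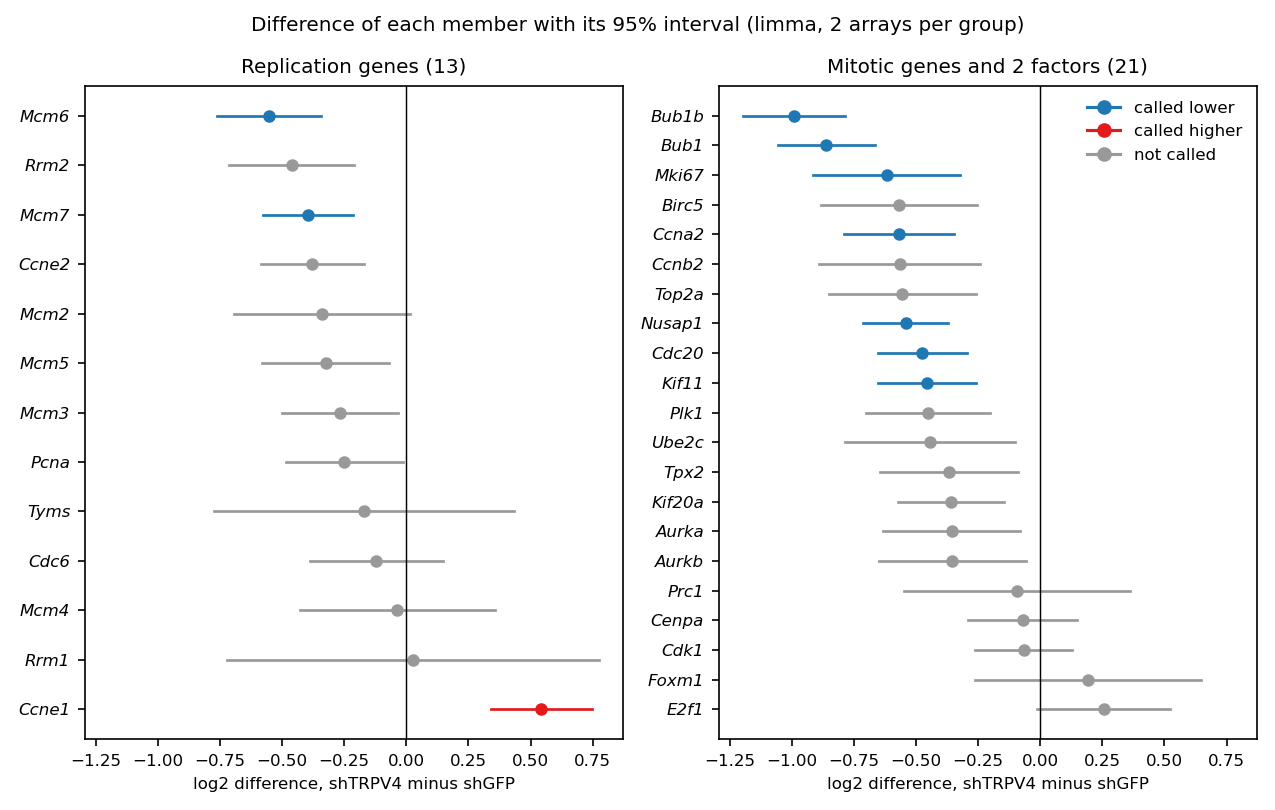
Difference of each measured member in normalized log2(intensity + 16), shTRPV4 minus shGFP, with its 95% interval from limma over 2 arrays per group; blue marks members called lower, red higher and grey not called. The interval lay below 0 for 23 members, above it for 1 and held 0 for 10.

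Among the replication genes, 2 of 13 were called lower (Mcm6 and Mcm7), or 15.4% against 6.0% of all genes, and 1 higher (Ccne1). Of the 13 differences, 11 were negative, against 46.2% of all genes, and the median was −0.27. The array medians of this group, relative to each gene's own mean, were 0.15 and 0.18 in shGFP and −0.11 and −0.17 in shTRPV4 on the log2 scale. The spread within the group was wide, from −0.55 for Mcm6 to 0.54 for Ccne1.

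Mcm2 to Mcm7 encode the 6 subunits of the replicative helicase, which in the cell act as one ring. Mcm6 (1416251_at) read 503.3 and 567.7 in the shGFP arrays and 333.5 and 357.7 in the shTRPV4 arrays. Both shTRPV4 arrays were clearly lower, and Mcm6 fell by 0.55 (SE 0.07, adjusted p = 0.0348). Mcm7 (1438320_s_at) read 802.0 and 851.4 in shGFP and 607.0 and 604.7 in shTRPV4. Here too the groups did not overlap, and the difference was −0.39 (SE 0.06, adjusted p = 0.0461). The Mcm7 call was lost with the values as deposited (−0.44, adjusted p = 0.0534), with median centring (−0.34, adjusted p = 0.0596), with 1 added in place of 16 (−0.40, adjusted p = 0.0776) and with the brightest probe set other than _x_at or _s_at (−0.47, adjusted p = 0.053). The second called probe set of Mcm7, 1416031_s_at, gave −0.44 (adjusted p = 0.0446).

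The other 4 subunits did not pass. Mcm2 read 398.1 and 414.9 against 335.1 and 276.4, and its difference was −0.34 (95% interval −0.69 to 0.01, adjusted p = 0.174). Mcm5 read 174.8 and 188.0 against 121.6 and 145.0, with a difference of −0.33 (−0.58 to −0.07, adjusted p = 0.108). Both had their shTRPV4 arrays below their shGFP arrays. Mcm3 gave −0.27 (adjusted p = 0.131) by its brightest probe set, but its 5 probe sets ran from −0.40 to 0.17. Mcm4 gave −0.04 (adjusted p = 0.894) by its brightest probe set, with overlapping groups, and 0.014 under median centring. The other Mcm4 probe set, 1416214_at, gave −0.23 (−0.41 to −0.05, adjusted p = 0.109), with both shTRPV4 arrays lower.

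Pcna encodes the sliding clamp, and Cdc6 helps to load the helicase at origins. Pcna read 2199 and 2528 in shGFP and 1911 and 1965 in shTRPV4. The shTRPV4 arrays were the lower ones, but the difference of −0.25 (95% interval −0.48 to −0.01) did not pass (adjusted p = 0.147). Cdc6 read 87.4 and 95.01 against 82.9 and 72.0, and its normalized groups overlapped (−0.12, adjusted p = 0.466).

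Nucleotide supply rests on ribonucleotide reductase, whose large subunit is encoded by Rrm1 and whose S-phase subunit by Rrm2, and on thymidylate synthase, encoded by Tyms. Rrm2 read 627.0 and 641.3 in shGFP and 463.0 and 419.2 in shTRPV4. The groups were well apart, but the difference of −0.46 (SE 0.09) fell short of the threshold (adjusted p = 0.0609). Rrm1 read 490.2 and 855.0 in shGFP and 626.0 and 652.5 in shTRPV4. The control arrays of Rrm1 lay on either side of the other pair, and the difference was 0.03 (−0.72 to 0.77), or −0.019 with the values as deposited. Its second probe set, 1448127_at, gave −0.37 (adjusted p = 0.0819). Tyms read 19.4 and 9.0 against 8.2 and 12.6, at or near the added 16. The groups overlapped, and the difference was −0.17 (−0.77 to 0.43, adjusted p = 0.652). The further Tyms probe set 1438690_at, also dim, gave 0.20 (adjusted p = 0.18), with both shTRPV4 arrays higher.

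The E-type cyclins, which activate CDK2 at the entry into S phase, had differences of opposite sign. Ccne1 (1416492_at) read 334.3 and 328.0 in shGFP and 460.4 and 484.6 in shTRPV4. Both shTRPV4 arrays were higher, and Ccne1 rose by 0.54 (SE 0.07, adjusted p = 0.0344). Ccne2 read 291.2 and 325.0 against 226.1 and 219.6, with a difference of −0.38 (SE 0.07, adjusted p = 0.0618). For Ccne2 too the groups did not overlap, with the shTRPV4 arrays lower.

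**Figure D3:**
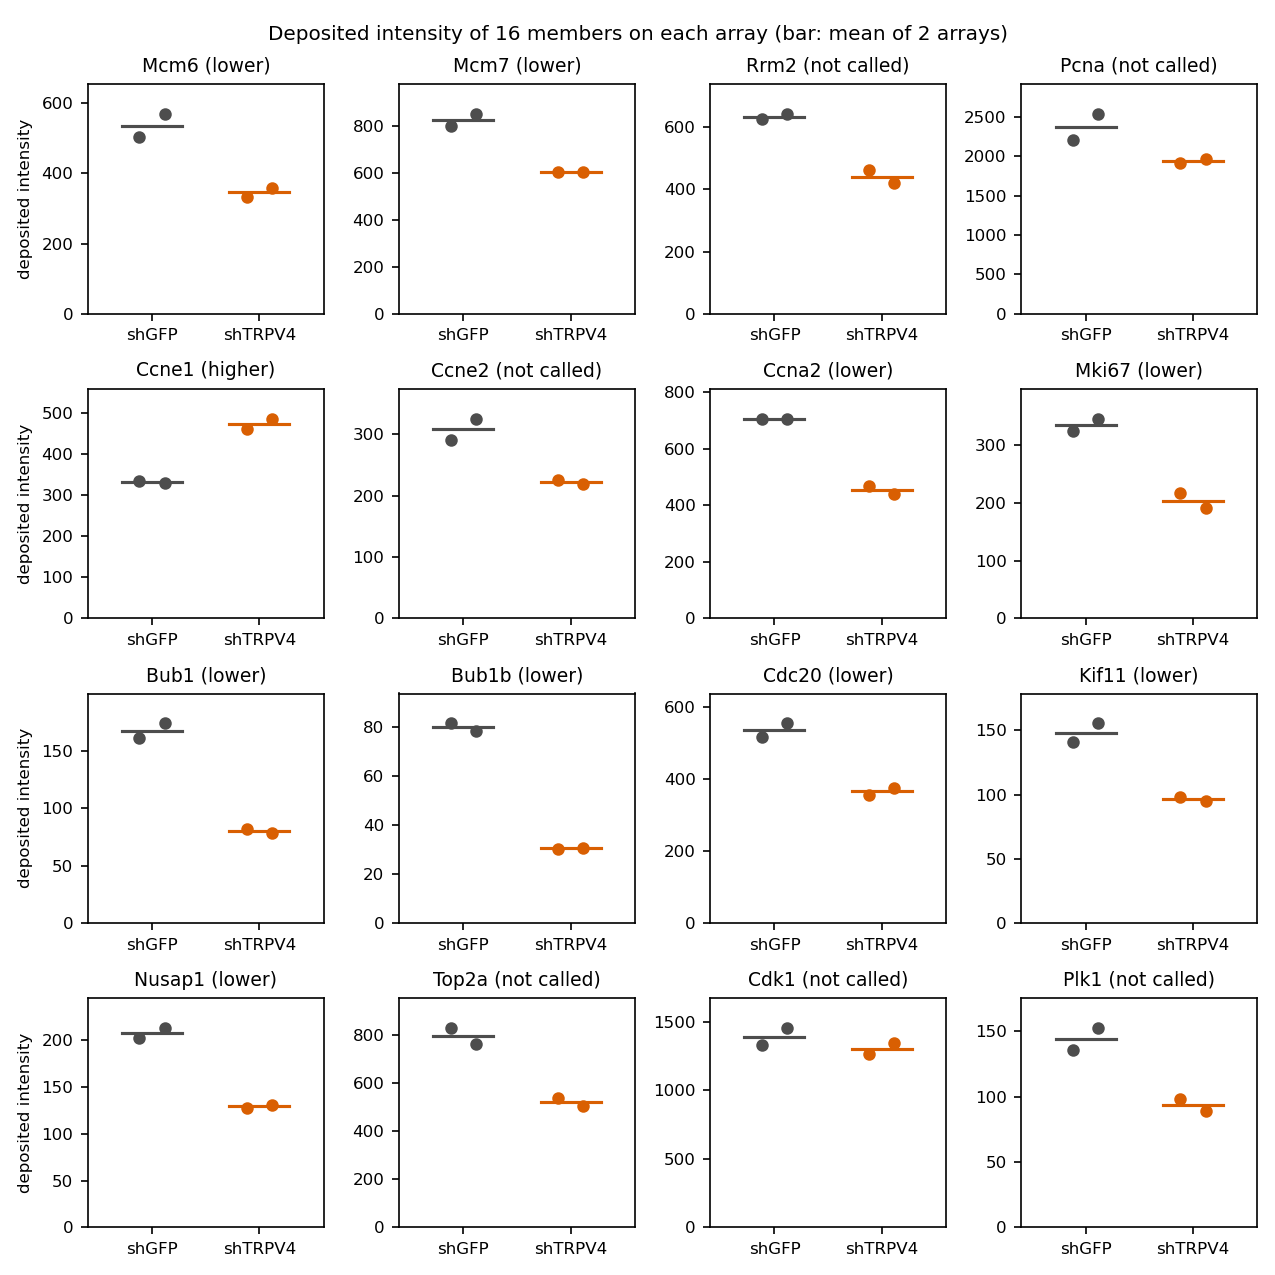
Deposited intensity of 16 members on each of the 4 arrays, 1 panel per gene with a linear axis from 0; points are arrays (grey shGFP, orange shTRPV4) and bars the means of 2 arrays. For the 9 members called lower, both shTRPV4 points lie under both shGFP points, and for Ccne1 they lie over them.

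The mitotic genes held 7 of the 9 members called lower: Bub1b, Bub1, Mki67, Ccna2, Nusap1, Cdc20 and Kif11. These are 33.3% of the 21 measured, against 6.0% of all genes. None of the 21 was called higher, by limma or at an unadjusted p under 0.05 (0 genes). Of the 21 differences, 19 were negative, against 46.2% of all genes, with a median of −0.45. In 17, both shTRPV4 arrays lay below both shGFP arrays, as they did for 27.7% of all genes. The array medians relative to each gene's mean were 0.19 and 0.25 in shGFP and −0.19 and −0.27 in shTRPV4. Whether mitotic and replication genes differed from each other was not tested.

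The spindle checkpoint genes had the 2 largest differences of all members. Bub1b (1416961_at), which encodes the checkpoint protein BUBR1, read 81.4 and 78.4 in shGFP and 30.1 and 30.7 in shTRPV4. The pairs were tight and far apart, and Bub1b fell by 0.99 (SE 0.07, adjusted p = 0.0174), a fold of 1.99 on this scale. Because the gene is dim, the difference depends on the added constant, and was −1.29 with 1 and −0.57 with 64 in place of 16. Bub1 (1424046_at), the kinase that recruits BUBR1 to kinetochores, read 161.4 and 173.8 in shGFP and 82.1 and 78.1 in shTRPV4. Again the groups were far apart, and Bub1 fell by 0.86 (SE 0.07, adjusted p = 0.019). Cdc20 (1439377_x_at), the activator of the anaphase-promoting complex that this checkpoint holds back, read 515.8 and 555.0 in shGFP and 356.9 and 376.4 in shTRPV4. It fell by 0.47 (SE 0.06, adjusted p = 0.0345), with no overlap between the groups. The Cdc20 call was lost with the brightest probe set other than _x_at or _s_at (1416664_at, −0.32, adjusted p = 0.061). Ube2c, the ubiquitin-conjugating enzyme of the anaphase-promoting complex, gave −0.44 and did not pass (adjusted p = 0.105).

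Cyclins and kinases of mitosis varied. Ccna2, the cyclin of S phase and early mitosis, read 705.6 and 704.1 in shGFP and 466.8 and 440.9 in shTRPV4. The groups were far apart, and Ccna2 fell by 0.57 (SE 0.08, adjusted p = 0.0366). Cdk1, the kinase that cyclins A and B activate, read 1329 and 1456 against 1265 and 1344. The intensities of the groups overlapped, after normalization both shTRPV4 arrays lay just under the controls, and the difference was −0.07 (−0.26 to 0.13, adjusted p = 0.58), or 0.0047 under median centring. The Cdk1 interval excludes a fall as large as the 0.57 measured for Ccna2. Ccnb2, a cyclin of mitotic entry, gave −0.57 and did not pass (adjusted p = 0.0648). Plk1, a kinase of centrosomes and kinetochores, read 136.0 and 152.7 against 98.6 and 89.1, with a difference of −0.45 (SE 0.09, adjusted p = 0.062). Aurkb, the kinase of the chromosomal passenger complex, read 140.2 and 169.4 against 113.2 and 105.5 (−0.35, adjusted p = 0.12). Both pairs of shTRPV4 arrays lay below the controls. Aurka, the spindle-pole kinase, gave −0.36 (adjusted p = 0.105).

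Chromosome structure was represented by Mki67, Top2a, Birc5 and Cenpa. Mki67, which encodes the proliferation antigen Ki-67 that coats mitotic chromosomes, read 323.7 and 344.5 in shGFP and 217.1 and 190.0 in shTRPV4. It fell by 0.62 (SE 0.10, adjusted p = 0.0494), with the groups apart but the p close to the threshold. Top2a, the topoisomerase that untangles sister DNA, read 828.1 and 760.8 against 538.4 and 504.7. Its groups did not overlap, and the difference of −0.55 (SE 0.10) did not pass (adjusted p = 0.0586). Birc5, which encodes the passenger protein survivin, read 765.2 and 916.7 against 569.8 and 518.1, with a difference of −0.57 (SE 0.11, adjusted p = 0.0618). Cenpa, the histone variant of centromeres, gave −0.07 with overlapping groups (adjusted p = 0.602).

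Of the spindle genes, 2 were called. Nusap1 (1416309_at), a protein that bundles spindle microtubules, read 202.3 and 212.7 in shGFP and 127.3 and 130.6 in shTRPV4. The replicates of Nusap1 were closely matched, and it fell by 0.54 (SE 0.06, adjusted p = 0.0274). Kif11 (1435306_a_at), the kinesin that pushes spindle poles apart, read 140.8 and 155.5 against 97.9 and 95.2. Kif11 fell by 0.46 (SE 0.07, adjusted p = 0.0421), again without overlap. Tpx2, a spindle assembly factor, gave −0.37 (adjusted p = 0.102), and Kif20a, a kinesin of the midzone and cytokinesis, −0.36 (adjusted p = 0.0695). Prc1, which crosslinks the midzone, gave −0.09 (adjusted p = 0.751) by its brightest probe set and −0.44 (adjusted p = 0.0562) by the other.

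Neither transcription factor was called by its brightest probe set. E2f1 read 363.8 and 405.1 in shGFP and 407.3 and 479.6 in shTRPV4. The shTRPV4 arrays were slightly higher, by 0.25 (−0.01 to 0.52, adjusted p = 0.176), and the further probe set 1417878_at gave 0.53 (adjusted p = 0.0524). With its probe sets averaged, E2f1 was called higher (0.39, adjusted p = 0.0467). Foxm1, a driver of mitotic genes, read 40.3 and 59.4 against 56.8 and 54.0, with overlapping groups (0.19, adjusted p = 0.497). Its other 3 probe sets gave differences between −0.17 and −0.05.

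Just short of the threshold stood 7 members with an adjusted p under 0.07 (Top2a, Rrm2, Ccne2, Birc5, Plk1, Ccnb2 and Kif20a), so the count of 9 depends on where the threshold lies. With 1 added to the intensities in place of 16, Bub1 and Bub1b were the 2 members called. Over all 64 probe sets of the members, 54 differences were negative, 8 positive and 2 were exactly 0, the latter being probe sets of Top2a and Cdc20 deposited as 1 on every array. Of the 64 probe sets, 10 were called lower and 1 higher, against 5.36% of all probe sets called lower. Of the 19 genes with several probe sets, 12 had only negative differences. Averaging the probe sets of a gene, dim ones included, gave −0.53 for Bub1 (adjusted p = 0.0825), −0.26 for Cdc20 (0.0641), −0.27 for Kif11 (0.0757) and −0.28 for Nusap1 (0.212), which ended those 4 calls. It also brought in 4 others as lower (Aurkb, Ccne2, Plk1 and Rrm2), so 9 members were lower in this setting too.

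**Figure D4:**
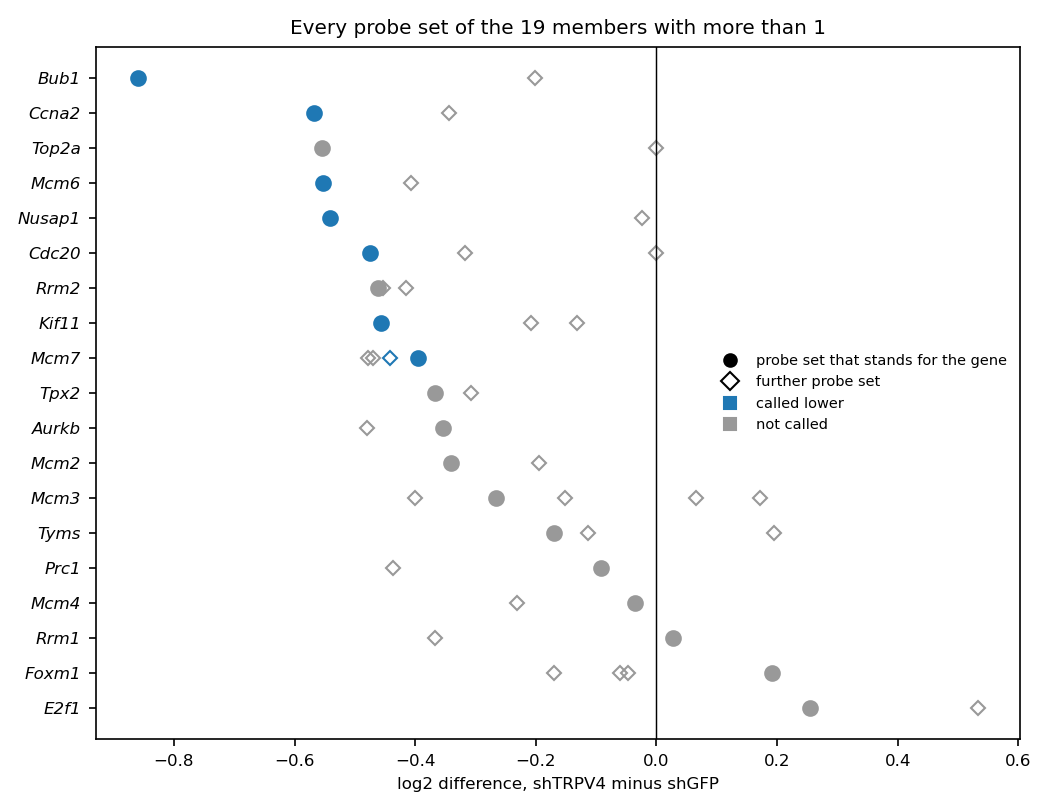
Log2 difference, shTRPV4 minus shGFP, for every probe set of the 19 members with more than 1; filled circles are the probe sets that represent the gene, open diamonds the further ones. Mcm7 has 4 probe sets, all negative, while those of Mcm3, Rrm1, Tyms and Foxm1 lie on both sides of 0.

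The wider machinery was counted in 2 lists of genes that are not members. Both lists were chosen with earlier results of these data known, so their counts are a description only. Of 51 further replication genes, 45 were measured, with a median difference of −0.15. At an unadjusted p under 0.05, 15 were lower, against 15.2% of all genes, and 4 were higher, as were 2214 of all 12393 genes. By adjusted p, 0 were called higher and 6 lower (13.3%, against 6.0% of all genes). These were Tk1, the thymidine kinase of S phase (−0.85), Pole, the catalytic subunit of polymerase epsilon (−0.75), Dbf4, the activator of the origin-firing kinase (−0.59), the maintenance methyltransferase Dnmt1 (−0.54), and the polymerase alpha subunits Pola1 (−0.53) and Pola2 (−0.43). Of 68 further mitotic genes, 58 were measured, with a median of −0.31. Here 33 were lower and 2 higher at an unadjusted p under 0.05. By adjusted p, 0 were called higher and 11 lower (19%, against 6.0% of all genes). The largest were Stmn1, which destabilizes microtubules (−0.92), the cytokinesis genes Ect2 (−0.90) and Kif23 (−0.89), the spindle gene Ckap2 (−0.75), the condensin subunit Ncapg (−0.64) and the kinesin Kif18a (−0.63).

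**Figure D5:**
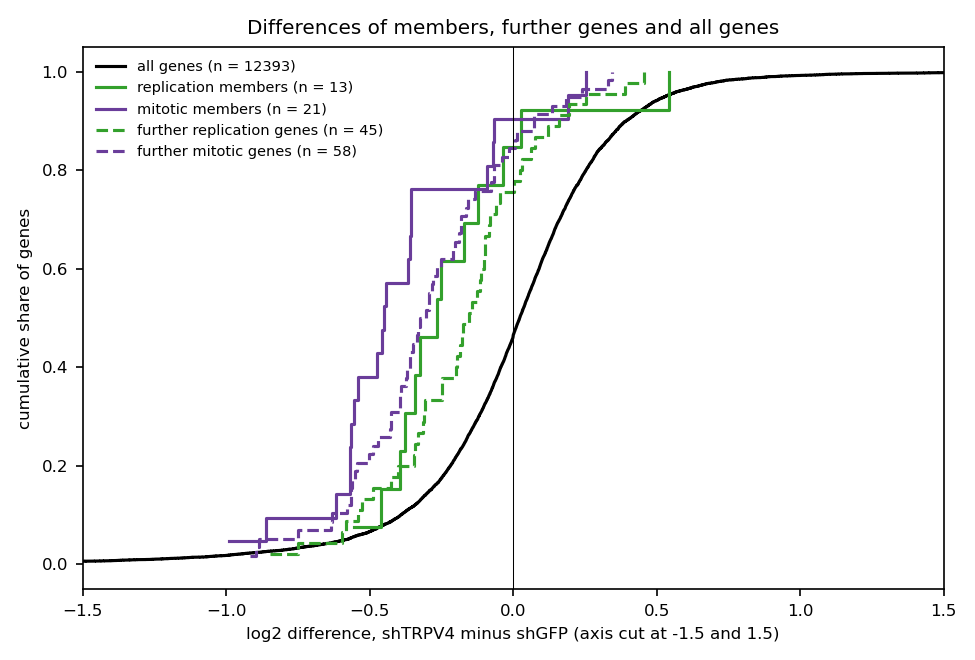
Cumulative share of genes (vertical axis) by log2 difference, shTRPV4 minus shGFP (horizontal axis, drawn from −1.5 to 1.5), for all 12393 genes and for the replication members, mitotic members and the 2 further lists. The medians are 0.02 for all genes, −0.27 for replication members, −0.45 for mitotic members, −0.15 for further replication genes and −0.31 for further mitotic genes.

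Upstream regulators were called lower about as often as genes in general (6.0%). Of 15 measured E2F and DREAM genes, E2f1 and Foxm1 among them, 1 was called lower (6.67%): Rbl1, which encodes the pocket protein p107 and is itself an E2F target, fell by 0.65 (adjusted p = 0.0371), from 342.4 and 318.1 to 195.2 and 195.4. The median of that list was 0.02, and 0 were called higher, with 2 higher at an unadjusted p under 0.05. Among 13 G1 cyclins, their kinases and CDK inhibitors, 1 was called lower (7.69%) and 2 higher (against 5.33% of all genes). At an unadjusted p under 0.05, 1 was lower and 5 were higher, together 46.2% of the list against 33.1% of all genes. Ccnd1, the D-type cyclin induced by growth factors, fell by 0.81 (adjusted p = 0.0205), from 2731 and 2843 to 1594 and 1530. Ccnd3, a D-type cyclin of fat cell differentiation, rose by 0.62 (adjusted p = 0.034), from 1216 and 1279 to 1746 and 2019. Cdkn2c, which encodes the CDK4 and CDK6 inhibitor p18, rose by 0.58 (adjusted p = 0.0315), from 2769 and 2799 to 3950 and 4344.

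Markers of the cells' state moved alongside. All arrays expressed the fat cell genes Fabp4, Adipoq and Lpl at 11785 or above. Of 9 measured adipocyte markers, 3 were called higher (Pparg, Cebpa and Slc2a4), against 5.33% of all genes. Of the 9 differences, 6 were positive, 2 negative (Cidec −0.14 and Lpl −0.05), and that of Fabp4 was 0. Fabp4 was the brightest probe set on every array, so quantile normalization fixed its difference at 0. Its deposited intensities were 18222 and 18099 in shGFP and 19142 and 19625 in shTRPV4. The list's summed deposited intensity, mainly from Fabp4, Lpl and Adipoq, was 54839 to 55256 in shGFP and 59678 to 62688 in shTRPV4. Of 9 measured preadipocyte and fibroblast markers, 6 were called lower (Lum, Dcn, Pdgfra, Dlk1, Cd34 and Thy1), or 66.7% against 6.0% of all genes. Their list had a median of −1.07 and summed intensities of 46094 to 47928 against 32011 to 32651. The 8 macrophage markers were read here in cultures of a preadipocyte line. Of these, 3 were called lower (Lyz2, Cd14 and Csf1r), or 37.5% against 6.0% of all genes, and 1 higher (Cd68). The sums were 938 to 1032 against 601 to 656, but 5 of the 8 differences were positive and the median was 0.12. Cd14 was at 461 and 470 in shGFP and 242 and 204 in shTRPV4, Cd68 at 41.1 and 66.7 against 154 and 182, and Adgre1 at 73.0 and 70.5 against 94.0 and 83.7. The lowest macrophage markers were Fcgr1 (1.13 to 3.27) and Ptprc (5.43 to 11.2). Among all probe sets, 82 were deposited as 1 on all arrays, so a value above 0 does not show that a marker was expressed. Background signal was not measured, so Fcgr1 and Ptprc cannot be called present. The part of the adipocyte, preadipocyte and fibroblast, and macrophage markers in the lower replication and mitotic genes was not tested.

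The hairpin's target could not serve as a check of the labels: Trpv4 was dim, at 43.7 and 93.8 in shGFP and 80.1 and 79.5 in shTRPV4 (0.32, −0.55 to 1.19, adjusted p = 0.55), so directions here refer to the arrays as labelled. Array medians were 129 to 144, and the median absolute log2 difference was 0.10 and 0.12 between replicates and 0.20 to 0.22 between arrays of different groups. Over all genes 744 were called lower and 661 higher, which became 718 and 380 with the values as deposited and 709 and 1036 with median centring.

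With 2 arrays per group, an exact permutation test cannot give a two-sided p below 0.333, and every call rests on the spread that limma shares across probe sets. With any 1 array left out, no gene of the 12393 was called by limma (2687 to 3424 at an unadjusted p under 0.05, 17 to 21 of them members), while 29 or 30 of the 34 members had a negative difference.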

How the data were processed

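The deposited value table holds 1 linear intensity per probe set and array, and how the authors summarised and scaled these intensities is not given in the sources used here. All 22626 probe sets were quantile normalized as log2(intensity + 16) and tested in R 4.3.3 with limma 3.58.1 (lmFit and eBayes, no trend, two-sided, Benjamini-Hochberg adjustment over all probe sets), without pairing, leaving 2 residual degrees of freedom. The platform annotation named 1 gene for 20380 probe sets, several for 691 and none for 1555. Of the single-gene identifiers, 20351 matched RefSeq (GRCm38.p6). The code was tested on simulated data. All members may be named. Full values are given for called members and for at least 1 member of each step, and up to 6 called genes per direction of each further list are named. The members and lists were chosen with earlier results of these data known. The closing section gives the effect of other scalings, constants, filters, probe set rules, an intensity trend, the replicate block and left-out arrays.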

Additional observations from a re-analysis of the deposited data

How the results depend on the processing

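Of 330 values of single members under settings other than left-out arrays, 258 kept their direction and their side of the threshold, 26 lost the call, 40 gained it and 6 changed sign. Counts of called genes moved more than directions did. With a constant of 1 in place of 16, 2 members were lower and 0 higher (0 replication and 2 mitotic genes lower), with 1 further replication gene, 3 further mitotic genes and 271 genes in all lower and 116 higher. With 64 these were 16 members lower (4 and 12), 27 further mitotic genes lower, 2 further replication and 1 further mitotic gene higher, and 1222 genes lower and 1356 higher. Without probe sets under the 25th percentile there were 16 members lower (4 and 12), 28 further mitotic genes lower, 2 and 1 further genes higher, and 1189 genes lower and 1298 higher. Without those under the 50th percentile, 26 members were left, Bub1 and Bub1b not among them, and 19 were lower (8 and 11). Of the 10 members called in the main fit, 7 stayed called. There were 13 further replication and 22 further mitotic genes lower, 4 and 2 higher, and 1370 genes lower and 1714 higher. With an intensity trend there were 14 members lower (4 of them replication genes), 17 further mitotic genes lower, 2 and 1 further genes higher, and 1236 genes lower and 1408 higher. Median centring left 1 replication gene lower and 2 further replication genes higher, with 1036 genes higher in all, and the values as deposited gave 380 higher. Averaged probe sets gave 4 replication genes lower, 2 members (Ccne1 and E2f1) and 1 further replication gene higher. Avoiding _x_at and _s_at probe sets gave 7 members lower, 1 of them a replication gene, with the calls of Mcm7 and Cdc20 lost.

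The arrays share only a replicate number. The correlation of deviations from the group mean was 0.12, which with 2 arrays per group is necessarily the same in both pairs. A fit with the replicate block called 0 genes in every list and 0 of all genes (4029 at an unadjusted p under 0.05). With 1 array left out the counts were 0 to 0 in every list. Both kinds of fit have 1 residual degree of freedom.

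The median of the replication members was −0.33 as deposited, −0.23 under median centring, −0.34 with a constant of 1, −0.33 (−0.325) without probe sets under the 50th percentile, −0.23 (−0.231) without _x_at and _s_at probe sets, and −0.33 to −0.24 with 1 array left out. That of the mitotic members was −0.53 as deposited, −0.34 with a constant of 64 and −0.36 with averaged probe sets. The members that changed sign were all uncalled: Mcm3 (0.17 without _x_at and _s_at probe sets), Mcm4 (0.014 under median centring), Cdk1 (0.0047 under median centring), Rrm1 (−0.019 as deposited, −0.17 averaged) and Foxm1 (−0.022 averaged). With 1 array left out the differences ran as follows, with both signs in each: Mcm4 −0.22 to 0.12, Rrm1 −0.33 to 0.38, Tyms −0.42 to 0.24, Prc1 −0.28 to 0.095 and Foxm1 −0.013 to 0.39. The cause of these changes was not tested. Background signal was not measured in the values used here.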
